A study of Mus musculus with 12 samples.

Results

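OT-I CD8+ T cells that had been expanded with all-trans retinoic acid (ATRA) and then restimulated through CD3e were compared with OT-I cells that had been expanded without ATRA and not restimulated. The comparison took 6 of the 12 libraries of the study, namely the 3 ATRA restimulated libraries and the 3 CTRL co-cultured libraries. The libraries of each group were taken by their labels, but this pair of groups was chosen with earlier results of these data known. OT-I mice carry a transgenic T cell receptor, so that their CD8+ T cells respond to an ovalbumin peptide. In both groups spleen CD8+ T cells were activated with anti-CD3e, anti-CD28 and IL-2, with ATRA at 5 ng/mL or with DMSO, its solvent (CTRL), during that expansion only. Both were cultured for 5 further days and then held for 72 h at 1% O2 with GL261, a mouse glioma line that carried ovalbumin. The ATRA group received anti-CD3e for a further 24 h, whereas the CTRL group did not. Live CD45.2+ cells were sorted and total RNA was sequenced. Restimulation, treatment and the set of batches named in the labels all differed between the groups, so the part of each in a difference cannot be told apart. The question addressed was how alike these cytokine-high groups were and what still set them apart. The other 2 groups, ATRA co-cultured and CTRL restimulated, are given beside them as context.

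A T cell that meets its antigen switches on cytokine, chemokine and cytotoxic genes together with the transcription factors and inhibitory receptors that T cell receptor signals induce. Antigen that persists leads CD8+ T cells into a dysfunctional state with inhibitory receptors and weaker cytokine output, often called exhaustion. Retinoic acid binds nuclear receptors and is known in T cells for imprinting gut homing through the chemokine receptor CCR9 and the integrin alpha4beta7.

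Total counts ranged from 25288129 to 26111497 in the CTRL co-cultured libraries and from 17943718 to 20115836 in the ATRA restimulated libraries. At these depths 3 counts in a library corresponded on average to 0.122 CPM (counts scaled to a common library size) and 0.159 CPM, limits that cover counting error only. Whether replicate libraries represent different animals or cultures is not stated in the labels, so the p-values speak only for library-to-library spread, which may be technical. CTRL co-cultured replicate 1 stood apart. Its counts differed from those of replicates 2 and 3 by a chi-square per degree of freedom of 46.4 and 39.0, against 3.37 between replicates 2 and 3 and at most 5.51 within the ATRA restimulated group. Results that rest on it are given with and without it. In the ATRA co-cultured group, used as context only, replicate 3 differed from replicates 1 and 2 by 126 and 86.3, against 7.21 between replicates 1 and 2. The ranges given for that group below therefore span unlike libraries. The 2 compared groups come from separate count tables with different gene naming, and 13476 symbols that both tables listed were compared. As an example, the predicted gene Gm10359 stood at 3609, 3493 and 3645 CPM in CTRL co-cultured cells and at 0 in all 6 restimulated libraries.

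Both groups carried the markers of their labelled cell type. The summed level of the CD8 T cell marker list was 2813 to 3819 CPM (median 2951) in CTRL co-cultured and 2662 to 2707 CPM (median 2684) in ATRA restimulated libraries. Cd8a, which encodes the CD8 alpha chain, was at 402, 282 and 299 CPM in the former and at 154, 149 and 151 CPM in the latter (log2 fold change -1.12, edgeR quasi-likelihood adjusted p = 9.28e-05). Cd3e (197 ± 31 and 184 ± 3.5 CPM, SD, n = 3) did not pass the test. The GL261 glioma marker list summed to 952 to 1044 CPM and to 1015 to 1073 CPM, mostly from Vim, which T cells also express. Gfap, Sox2, Olig1 and Olig2 were not in both tables. Of 7 tested glioma markers 2 were higher and 2 lower, with log2 fold changes from -4.16 to 2.88 (median -0.29). The NK cell list summed to 901 to 1125 and 1467 to 1562 CPM, mostly from Gzma and Nkg7, which CD8+ T cells also express. The dendritic cell list summed to 144 to 163 and 112 to 116 CPM, the monocyte and macrophage list to a median of 118 and 79.5 CPM, and the B cell list to 52.3 to 65.4 and 49.0 to 53.8 CPM. Within the B cell list, however, 4 of 6 tested members were higher and 2 lower (median log2 fold change 2.14). Ms4a1, the CD20 gene, stood at 0.0833 ± 0.11 against 2.69 ± 0.51 CPM (4.96, past 2-fold), while Ighm, most of the sum, was lower (-0.33). Of 8 dendritic cell markers 3 were higher and 5 lower (median -1.08), and of 8 NK cell markers 2 were higher and 3 lower (median -0.17). The CD4 T cell list summed to 712 to 744 and 720 to 786 CPM, mostly from Il2ra and Ctla4, while Cd4 itself had at most 20 counts in any of these 6 libraries. Erythroid markers were under 1 CPM in sum. The part of other cells in the results below was not tested.

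The groups were far from identical across the transcriptome. Over 12254 genes the Pearson correlation of log2 CPM was 0.888 to 0.894 for the 9 pairs of a CTRL co-cultured and an ATRA restimulated library, against 0.976 to 0.991 within the first group and 0.983 to 0.984 within the second. These correlations are across genes, which are not independent. CTRL co-cultured and CTRL restimulated libraries were nearer to each other (0.931 to 0.940). CTRL co-cultured and ATRA co-cultured libraries correlated at 0.880 to 0.928 (mean 0.909, against 0.891 for the compared groups). ATRA restimulated libraries correlated with CTRL restimulated libraries at 0.884 to 0.898 and with ATRA co-cultured libraries at 0.859 to 0.868. On average 72.4% of genes lay within 2-fold of each other in a pair of a CTRL co-cultured and an ATRA restimulated library. The share was 66.3% in a pair of the ATRA groups, 75.9% in a pair of the co-cultured groups and 81.1% in a pair of the CTRL groups.

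**Figure D1:**
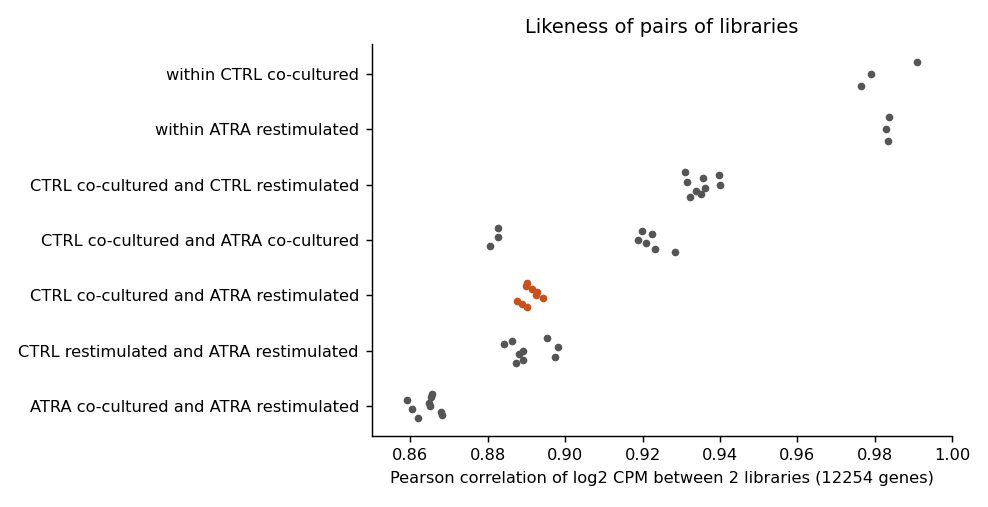
Pearson correlation of log2 CPM over 12254 genes for pairs of libraries, 1 point per pair, with the pairs of CTRL co-cultured and ATRA restimulated libraries in orange. Those pairs sit at 0.888 to 0.894, below the pairs within either group (0.976 and above) and below the pairs of the 2 CTRL groups (0.931 to 0.940).

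Of 11833 genes tested with edgeR, 7800 (65.9%) differed at an adjusted p under 0.05. They were 3885 (32.8%) higher and 3915 (33.1%) lower in ATRA restimulated cells. Most of these differences were small: the absolute log2 fold change had a median of 0.51 and a 90th percentile of 1.93. A difference larger than 2-fold passed edgeR's test against that threshold for 1730 genes (14.6%), of which 854 (7.22%) were higher and 876 (7.4%) lower. For 6928 genes (58.5%) the 95% interval of the fold change lay wholly within 2-fold. These are called within 2-fold here, and 3845 of them still differed at an adjusted p under 0.05. The shares of 32.8% higher, 33.1% lower and 58.5% within 2-fold are the background for the counts of each gene list. The 3 libraries of each group did not overlap for 8462 genes (71.5%). The counts were 8698 genes that differed, 2038 of them past 2-fold, without CTRL co-cultured replicate 1.

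**Figure D2:**
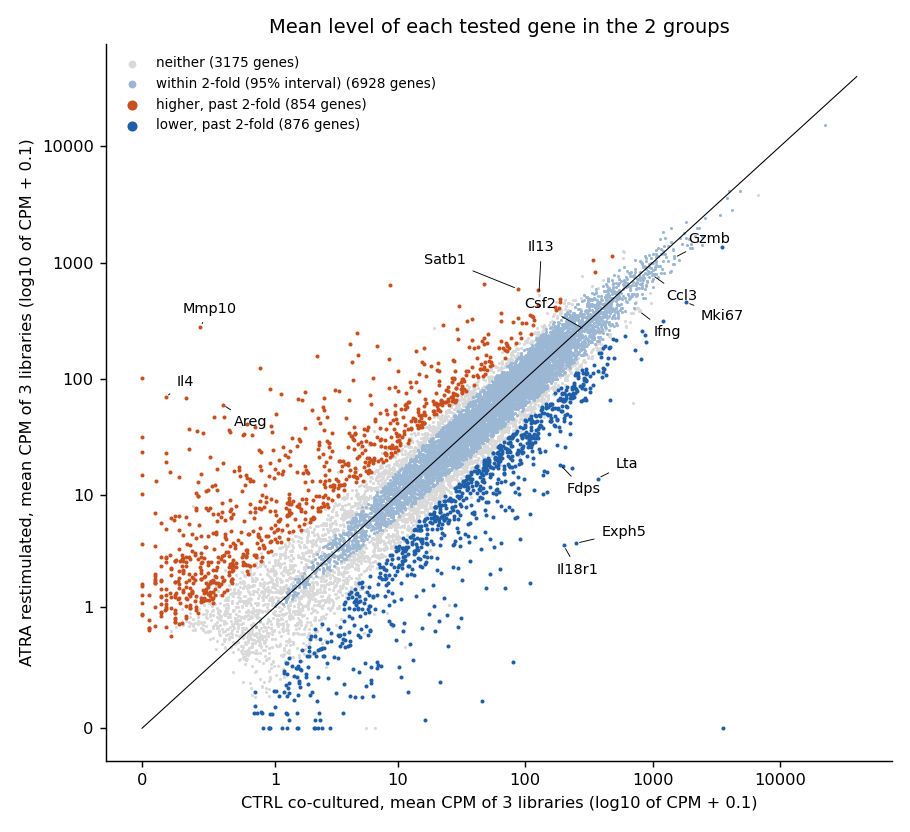
Mean CPM of each tested gene in CTRL co-cultured (x) and ATRA restimulated libraries (y), both on a log10 axis of CPM + 0.1, with the line of equal levels. Csf2 and Ccl3 lie near that line, Il4 and Mmp10 far above it, and Il18r1 and Exph5 far below it; the point at 0 on the right is the predicted gene Gm10359.

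A few effector genes stood at like levels in the 2 groups, although most cytokine genes did not. Csf2, which encodes the macrophage growth factor GM-CSF, was at 230, 334 and 328 CPM in CTRL co-cultured libraries and at 273, 252 and 270 CPM in ATRA restimulated libraries. The groups overlapped, and the log2 fold change was -0.16 (SE 0.13, 95% interval -0.47 to 0.15, edgeR adjusted p = 0.311). ATRA co-cultured cells had 21.2 to 53.2 CPM of Csf2 and CTRL restimulated cells 16.7 to 22.2 CPM. Without CTRL co-cultured replicate 1 Csf2 was lower in ATRA restimulated cells (log2 fold change -0.32, adjusted p = 6.35e-06), still within 2-fold.

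Ccl3 and Ccl4, inflammatory chemokine genes, were also within 2-fold. Ccl3 stood at 1182, 868 and 910 CPM against 820, 752 and 797 CPM (log2 fold change -0.32, SE 0.11, adjusted p = 0.0308). Ccl4 stood at 610, 500 and 497 CPM against 630, 632 and 674 CPM (0.27, SE 0.09, adjusted p = 0.0219). No library of either group overlapped for these 2 genes, in opposite directions. Ccl3 was at 3.58 to 61.7 CPM in ATRA co-cultured and 77.6 to 101 CPM in CTRL restimulated cells. With all 12 libraries in 1 fit, whose other groups vary more, neither differed (adjusted p = 0.676 and 0.573) and neither interval lay within 2-fold. Leaving out any 1 ATRA restimulated library also ended both calls (adjusted p 0.0673 to 0.115 for Ccl3 and 0.0547 to 0.0903 for Ccl4). The call of Ccl4 ended as well without CTRL co-cultured replicate 2 (0.0708) or 3 (0.0846), and that of Ccl3 under upper-quartile scaling (0.0774).

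Crabp2, which encodes a retinoic acid binding protein, followed the same order of groups. It was at 35.2, 44.2 and 40.9 CPM in CTRL co-cultured and at 36.1, 31.4 and 32.2 CPM in ATRA restimulated libraries, against 0.519 to 0.937 CPM in ATRA co-cultured and 1.24 to 2.43 CPM in CTRL restimulated libraries. Its log2 fold change of -0.27 (adjusted p = 0.0485) lay within 2-fold, but the call ended in 10 of the 17 alternatives (adjusted p = 0.245 with all 12 libraries in 1 fit). Rgs16, a regulator that shortens G protein signals, stood at 394, 282 and 282 against 302, 277 and 316 CPM, with overlap between the groups (-0.10, adjusted p = 0.535). With all 12 libraries in 1 fit its interval was wider than 2-fold. The interleukin 2 receptor gene Il2ra did not pass the test either (529 ± 5.9 and 557 ± 28 CPM, log2 fold change 0.08, adjusted p = 0.283), though it did with library totals in place of TMM scaling (adjusted p = 0.0437).

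Other effector genes were high in both groups but lower in ATRA restimulated than in CTRL co-cultured cells. Ifng, which encodes interferon gamma, was at 913, 715 and 709 CPM in CTRL co-cultured and at 381, 391 and 386 CPM in ATRA restimulated libraries, with no overlap. The log2 fold change was -1.01 (SE 0.10, adjusted p = 2.22e-05), against 10.6 to 82.2 CPM in ATRA co-cultured and 54.3 to 59.6 CPM in CTRL restimulated cells. With all 12 libraries in 1 fit the call of Ifng ended (adjusted p = 0.102). Tnf, the gene of tumour necrosis factor, was at 166, 123 and 134 against 66.8, 65.8 and 68.3 CPM (-1.07, SE 0.10, adjusted p = 2.26e-05).

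The chemokine and killing genes of this kind differed to unequal degrees. Xcl1, a chemokine that draws cross-presenting dendritic cells, stood at 615, 378 and 411 against 285, 288 and 288 CPM (-0.71, SE 0.18, adjusted p = 0.0105). ATRA co-cultured cells had 0.519 to 1.41 CPM of Xcl1 and CTRL restimulated cells 56.3 to 68.3 CPM. Ccl1 (606, 318 and 371 against 112, 108 and 107 CPM) was lower by more, with a log2 fold change of -1.98 (SE 0.25, adjusted p = 0.000801). Ccl9 (223 ± 38 against 74.9 ± 5.2 CPM) was lower as well, with -1.57. Prf1, the gene of the pore-forming protein perforin, stood at 924, 722 and 740 against 398, 388 and 400 CPM (-1.01, SE 0.09, adjusted p = 1.8e-05). Gzmb, the gene of the death-inducing protease granzyme B, stood at 1824, 1293 and 1305 against 1129, 1085 and 1092 CPM (-0.42, adjusted p = 0.0174). Its interval lay within 2-fold, and the call ended without any 1 ATRA restimulated library (adjusted p 0.0505 to 0.0641). In all of these genes CTRL co-cultured replicate 1 was the highest library. Without it Ifng (-0.88), Prf1 (-0.89) and Xcl1 (-0.46) remained lower, each with its interval within 2-fold.

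Gzma, another granzyme gene, went the other way. It was at 341, 346 and 342 CPM in CTRL co-cultured and at 1056, 1037 and 1092 CPM in ATRA restimulated libraries (log2 fold change 1.63, SE 0.06, adjusted p = 6.62e-08). Srgn, the gene of the granule proteoglycan serglycin, was also higher (188 ± 16 against 488 ± 5.1 CPM, 1.37). Serpinb6b, a granzyme inhibitor gene, was within 2-fold (507 ± 172 against 564 ± 3.1 CPM, 0.15, adjusted p = 0.577), and higher by 0.47 without CTRL co-cultured replicate 1 (adjusted p = 1.11e-08). Rab27a, which docks lytic granules for release, was lower (114 ± 5.5 against 28.2 ± 1.1 CPM, -2.02), and so was Klrk1, the gene of the activating receptor NKG2D (289, 193 and 215 against 16.1, 15.7 and 19.4 CPM, -3.77). Of 20 cytotoxic effector genes tested, 4 were higher, 9 lower and 8 within 2-fold, against 32.8%, 33.1% and 58.5% of all genes tested. The count of higher members was 9 without CTRL co-cultured replicate 1.

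Genes of type 2 and regulatory cytokines set the groups apart. Il4, the signature cytokine of type 2 responses, was at 0, 0.0402 and 0.118 CPM in CTRL co-cultured and at 67.9, 76.7 and 65.3 CPM in ATRA restimulated libraries. The level averaged 6.29 ± 7.6 CPM in ATRA co-cultured cells and was at most 0.0541 CPM in CTRL restimulated libraries. The fitted log2 fold change of Il4 was 10.19 (SE 0.27, adjusted p = 1.86e-08). It reached 11.37 without CTRL co-cultured replicate 3, the library with most of the few counts of that group. Each CTRL co-cultured level lay at or below that of 3 counts, so the size of the fold change and its SE are poorly resolved.

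Il5, the eosinophil growth factor, was at 0.0419, 2.49 and 2.21 against 69.0, 67.9 and 64.4 CPM (5.39, SE 0.64, adjusted p = 0.000766). Il10, an anti-inflammatory cytokine gene, was at 0.252, 2.21 and 2.88 against 80.8, 75.3 and 78.0 CPM (5.43, SE 0.52, adjusted p = 0.000261). In both genes CTRL co-cultured replicate 1 was the lowest library, and ATRA co-cultured libraries ranged from 0.622 to 8.63 CPM for Il5 and from 1.45 to 45.6 CPM for Il10. Il13, the neighbour of Il4 in the type 2 locus, stood at 13.9, 192 and 181 CPM against 555, 507 and 533 CPM. Its groups did not overlap, yet the difference did not pass the test (log2 fold change 2.05, SE 0.97, adjusted p = 0.129). CTRL co-cultured replicate 1 lay far below the other two. Without that library Il13 was past 2-fold (1.51, adjusted p = 4.23e-14), and with DESeq2 on all 6 libraries it passed the test of any difference (adjusted p = 0.0455).

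Il3, a growth factor of myeloid cells and basophils, stood at 6.96, 11.9 and 11.2 against 111, 120 and 123 CPM (3.55, SE 0.18, adjusted p = 1.01e-06). In the other 2 groups Il3 averaged 0.301 and 0.242 CPM. Areg, the gene of the epidermal growth factor receptor ligand amphiregulin, was at 0.587, 0.161 and 0.237 against 60.8, 61.9 and 57.8 CPM (7.51, SE 0.24, adjusted p = 4.77e-08, and 8.20 without CTRL co-cultured replicate 1). Both were therefore high in ATRA restimulated cells against each of the other groups. Csf1, a growth factor for macrophages, was higher too (16.1 ± 6.0 against 58.9 ± 2.2 CPM, 1.87).

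Lymphotoxin genes, whose products organise lymphoid tissue, were at the other end. Lta was at 160, 478 and 474 CPM in CTRL co-cultured and at 13.7, 12.5 and 15.5 CPM in ATRA restimulated libraries (log2 fold change -4.74, SE 0.52, adjusted p = 0.000629). It was also low in CTRL restimulated libraries (15.8 to 16.5 CPM) and at 60.8 to 446 CPM in ATRA co-cultured ones, so both restimulated groups were low. Ltb was at 74.3 ± 2.8 against 7.90 ± 1.3 CPM (-3.23, adjusted p = 8.59e-08), while CTRL restimulated cells averaged 69.3 CPM. Il16, a CD4 ligand gene, was lower as well (59.2 ± 5.1 against 10.1 ± 1.3 CPM, -2.55), beside 82.0 CPM in CTRL restimulated cells. Of 18 cytokine genes tested, 9 were higher and 6 lower, 6 and 3 of them past 2-fold, and 3 lay within 2-fold. Over all genes tested 32.8% were higher, 33.1% lower and 58.5% within 2-fold. The median log2 fold change of the cytokine genes was 0.27, against -0.01 over all genes tested. The count within 2-fold was 5 without CTRL co-cultured replicate 1. Of 7 chemokine genes 1 was higher and 5 lower (median -0.51); without any 1 ATRA restimulated library, none was higher and 3 were lower.

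**Figure D3:**
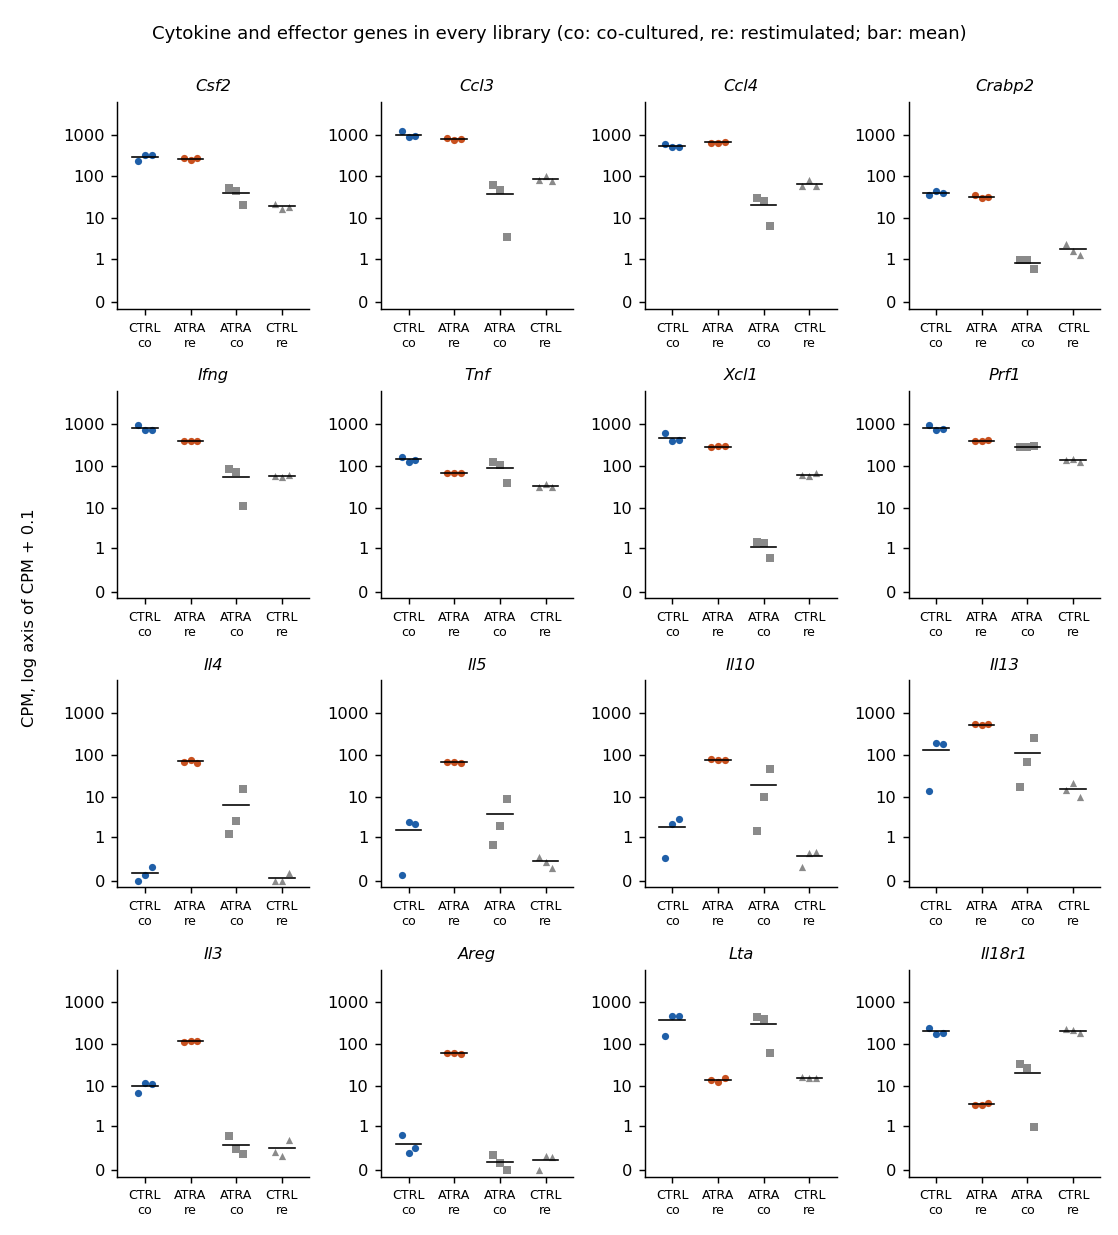
CPM of 16 cytokine, effector and receptor genes in every library on a log axis of CPM + 0.1, with a point per library and a bar at the mean of 3 libraries, for CTRL co-cultured (blue), ATRA restimulated (orange) and the other 2 groups (grey). Csf2, Ccl3, Ccl4 and Crabp2 in the top row are alike in the first 2 groups and low in the others, whereas Il4, Areg and Il3 are high in ATRA restimulated libraries and Il18r1 is at 3.52 to 3.81 CPM there.

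Receptor genes for the cytokines differed in kind. Il18r1, the ligand-binding chain of the interleukin 18 receptor, was at 246, 178 and 180 CPM in CTRL co-cultured and at 3.54, 3.52 and 3.81 CPM in ATRA restimulated libraries (log2 fold change -5.79, SE 0.16, adjusted p = 3.56e-08). Its partner chain Il18rap was at 86.8 ± 25 against 22.5 ± 0.49 CPM (-1.95). Il18r1 was at 190 to 225 CPM in CTRL restimulated cells and at 0.990 to 33.2 CPM in ATRA co-cultured cells, so the libraries of both ATRA groups lay below those of both CTRL groups. Il1rl1, the gene of the interleukin 33 receptor ST2, stood at 77.0, 55.8 and 57.6 against 2.75, 2.00 and 1.91 CPM (-4.84, SE 0.19, adjusted p = 1.29e-07). Il12rb1 and Il6st, signalling chains of the interleukin 12 and 6 receptors, were higher (1.29 and 1.69). Il2rb and Il2rg were within 2-fold (-0.09 and 0.58), Il2rg not so without ATRA restimulated replicate 3. Of 25 receptor chain genes 12 were higher, 6 lower and 8 within 2-fold, against 32.8%, 33.1% and 58.5% of all genes tested.

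Among genes that mark strong T cell receptor signals some were alike in the 2 groups and others differed. Egr2, an early transcription factor gene that restrains T cell activation, was at 250, 190 and 199 CPM against 153, 146 and 150 CPM (log2 fold change -0.51, adjusted p = 0.00164) and within 2-fold. It stood at 4.39 to 5.60 CPM in ATRA co-cultured and 17.9 to 28.1 CPM in CTRL restimulated libraries. Nr4a1, an immediate reporter of receptor signals, was at 64.8, 31.4 and 35.6 against 46.8, 53.4 and 52.9 CPM, with overlap (0.22, adjusted p = 0.514). Without CTRL co-cultured replicate 1, its highest library, Nr4a1 was higher in ATRA restimulated cells (0.61, adjusted p = 8.78e-06).

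Its relative Nr4a3 was lower in ATRA restimulated cells (112 ± 18 against 38.8 ± 2.6 CPM, -1.53). Myc, the driver of growth and proliferation after activation, stood at 237, 288 and 298 against 69.4, 62.9 and 62.7 CPM (-2.08, SE 0.09, adjusted p = 2.39e-07), beside 190 to 237 CPM in CTRL restimulated and 249 to 417 CPM in ATRA co-cultured cells. ATRA restimulated libraries were thus the lowest of all 4 groups for Myc. Irf4, a factor whose level follows receptor signal strength, was lower (231 ± 19 against 73.3 ± 3.4 CPM, -1.66), and so was Batf3 (24.4 ± 8.0 against 0.837 ± 0.57 CPM, -4.85). Fosl2 (42.3 ± 1.8 against 108 ± 7.1 CPM, 1.35) and Nfatc2 (1.16) were higher. Nfkb1 was higher within 2-fold (0.62), and Bhlhe40 lower within 2-fold (-0.73), though its interval passed 2-fold in 6 of the 17 alternatives. Of 28 such factors 8 were higher, 14 lower and 15 within 2-fold, with a median of -0.39. Over all genes tested 32.8% were higher, 33.1% lower and 58.5% within 2-fold, so the list was no more alike than other genes. In the fit of all 12 libraries 5 were higher.

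Feedback regulators of these signals differed as well. Dusp6, a phosphatase that switches off ERK and is itself induced by ERK signals, was at 44.7, 34.8 and 35.6 CPM in CTRL co-cultured and at 216, 211 and 219 CPM in ATRA restimulated libraries (log2 fold change 2.49, SE 0.10, adjusted p = 1.22e-07). It averaged 36.0 and 15.2 CPM in ATRA co-cultured and CTRL restimulated cells. Dusp1, another kinase phosphatase gene, was higher as well (11.4 ± 1.0 against 55.7 ± 2.1 CPM, 2.29). Dgkz, which consumes the diacylglycerol made after receptor engagement, was lower (507, 341 and 375 against 114, 113 and 116 CPM, -1.84), and so was the ubiquitin ligase gene Cblb (-0.94). Of 27 regulators 13 were higher, 5 lower and 11 within 2-fold, with a median of 0.60, against 32.8% higher, 33.1% lower and 58.5% within 2-fold of all genes tested.

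The receptor complex itself was mostly within 2-fold but leaned lower. Of 21 genes of the T cell receptor complex and its proximal signalling 16 were within 2-fold (76.2% against 58.5% of all genes tested). Of the same 21 genes 3 were higher and 10 lower, against 32.8% and 33.1% of all genes tested. Ptprc, the gene of the phosphatase CD45, was at 1421, 1013 and 1073 against 1188, 1173 and 1179 CPM (0.01, adjusted p = 0.925). The exceptions past 2-fold were Lck, Cd5, Themis and Prkcq, all lower, against 7.4% of all genes tested that were lower past 2-fold. Lck, the kinase that starts the receptor signal, stood at 450, 363 and 365 against 160, 149 and 155 CPM (-1.34, adjusted p = 2.07e-06). Cd5, a receptor that dampens that signal, stood at 197 ± 5.7 against 59.0 ± 5.8 CPM (-1.74). Without CTRL co-cultured replicate 1 the count of higher members was 6, Ptprc among them (0.18, adjusted p = 9.25e-05).

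Of 22 costimulatory receptors and TNF family genes 16 were within 2-fold, 8 higher and 3 lower. Over all genes tested these shares were 58.5%, 32.8% and 33.1%, so the share that was higher was near that of all genes. Tnfrsf9, the gene of the costimulatory receptor 4-1BB, was at 490 ± 126 and 399 ± 13 CPM (adjusted p = 0.147, and -0.42 with adjusted p = 0.0444 without CTRL co-cultured replicate 2), and its ligand gene Tnfsf9 was lower (-1.65). Cd44, an adhesion receptor gene of activated T cells, was higher by 0.53 and Cd69, an early activation marker gene, by 0.92. Without CTRL co-cultured replicate 1 or 2, 5 members were lower, and in the fit of all 12 libraries 4 were higher.

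The receptors used as markers of exhaustion were expressed in both groups and split in direction. Pdcd1, the gene of PD-1, was at 168, 115 and 115 CPM in CTRL co-cultured and at 79.2, 62.4 and 68.3 CPM in ATRA restimulated libraries (log2 fold change -0.92, SE 0.16, adjusted p = 0.00172). The call ended with all 12 libraries in 1 fit (adjusted p = 0.108), and without CTRL co-cultured replicate 1 the value was -0.72, within 2-fold. Pdcd1 stood at 3.68 to 24.9 CPM in ATRA co-cultured and at 62.7 to 84.0 CPM in CTRL restimulated cells.

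Lag3, Havcr2 (TIM-3), Tigit and Ctla4, genes of other inhibitory receptors, were each higher in ATRA restimulated cells and within 2-fold. The log2 fold changes were 0.43 for Lag3, 0.62 for Havcr2, 0.35 for Tigit and 0.26 for Ctla4. With all 12 libraries in 1 fit the calls of Lag3 (adjusted p = 0.118) and Ctla4 (0.393) ended, and the interval of Havcr2 reached past 2-fold (0.15 to 1.09), as it did without ATRA restimulated replicate 2. Lag3 stood at 180, 151 and 157 against 226, 216 and 216 CPM. Tigit stood at 120, 111 and 117 against 150, 149 and 145 CPM. No libraries overlapped for either gene. Cd274, which encodes the PD-1 ligand PD-L1, was past 2-fold (53.4 ± 5.5 against 154 ± 2.0 CPM, 1.53). Klrg1, a marker gene of terminal effector cells, was at 0.388 ± 0.16 against 9.05 ± 1.4 CPM (4.51), and Cd200r1, an inhibitory receptor gene, at 2.05 to 3.18 against 27.8 to 29.9 CPM (3.43). Cd200, whose product binds that receptor, was lower (-1.40). Of 20 inhibitory receptor genes 10 were higher, 7 lower and 6 within 2-fold, against 32.8%, 33.1% and 58.5% of all genes tested. Leaving out CTRL co-cultured replicate 1 put 10 within 2-fold, and in the fit of all 12 libraries 4 were lower.

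Single transcription factors of effector fate and of type 2 cells differed. Tbx21, the gene of the type 1 master regulator T-bet, was at 132, 121 and 134 CPM against 82.7, 74.1 and 77.4 CPM (log2 fold change -0.73, adjusted p = 2.01e-05). Gata3, the type 2 regulator, was at 16.6, 34.0 and 34.5 against 120, 112 and 118 CPM (2.03, SE 0.27, adjusted p = 0.000793). ATRA co-cultured libraries had 18.4 to 140 CPM of Gata3 and CTRL restimulated libraries 53.5 to 69.7 CPM, so ATRA restimulated libraries stood above the latter and within the range of the former.

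Maf, which is known to drive Il4 and Il10, was higher (1.02 ± 0.41 against 8.82 ± 0.99 CPM, 3.10), as were Runx1 (5.81 ± 1.4 against 38.7 ± 1.7 CPM, 2.73) and Id2 (1.26). Tox, the factor most often tied to exhaustion, was at 5.58, 3.14 and 4.14 against 0.898, 0.630 and 0.803 CPM (-2.46). Tcf7, the gene of the progenitor factor TCF1, was at 4.13 ± 2.0 against 0.416 ± 0.32 CPM (-3.32, SE 0.55). Over the 17 alternatives its value ranged from -4.12, without ATRA restimulated replicate 1, to -2.86. With all 12 libraries in 1 fit neither Tox nor Tcf7 passed the test against 2-fold. Both were low in all 6 libraries. Of 27 effector and exhaustion factors 9 were higher, 13 lower and 13 within 2-fold, and the share that was higher was near the 32.8% of all genes tested.

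Among 23 progenitor and memory genes 8 were higher, 10 lower and 4 within 2-fold (17.4% against 58.5% of all genes tested; 7 members without CTRL co-cultured replicate 1). Satb1, a chromatin organiser gene, was at 90.5, 86.0 and 87.4 CPM in CTRL co-cultured and at 598, 576 and 612 CPM in ATRA restimulated libraries (log2 fold change 2.76, SE 0.06, adjusted p = 7.69e-09), beside 190 to 716 CPM in ATRA co-cultured and 104 to 123 CPM in CTRL restimulated cells. The libraries of the 2 ATRA groups thus lay above all CTRL libraries. Myb, a factor of stem-like T cells, was lower (215 ± 8.3 against 57.6 ± 2.5 CPM, -1.90), and so were Lef1 (-1.12) and Bcl2, the survival gene (46.9, 73.2 and 73.1 against 21.6, 22.4 and 24.0 CPM, -1.50). Btg1, which slows proliferation, was higher within 2-fold (0.60), though not within it with all 12 libraries in 1 fit.

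Homing receptor genes differed mostly upwards. Ccr9 had no count in any CTRL library of either state and was at 101, 104 and 104 CPM in ATRA restimulated libraries, at least 846-fold above the 3-count floor of CTRL co-cultured libraries (adjusted p = 2.15e-08). ATRA co-cultured libraries had 42.4 to 46.3 CPM. Itgb7, the beta7 integrin chain, was at 50.3, 50.8 and 52.4 against 241, 237 and 247 CPM (log2 fold change 2.24, SE 0.05, adjusted p = 1.44e-08), although CTRL restimulated libraries had 191 to 273 CPM. Its partner Itga4 was at 99.2, 130 and 112 against 128, 127 and 126 CPM, with overlap (0.16, adjusted p = 0.157, and 0.26 with adjusted p = 0.0165 without CTRL co-cultured replicate 2).

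Tissue residence integrins were higher too. Itgae, the CD103 chain that pairs with beta7, was at 0.754 ± 0.23 against 16.3 ± 1.9 CPM (4.43). The collagen receptor chains Itga1 and Itga2 were at 2.52 ± 0.96 against 57.5 ± 4.7 CPM (4.50) and at 3.41 ± 1.2 against 79.2 ± 8.4 CPM (4.54). Cxcr6, a receptor of tissue-resident T cells, was higher by 1.91. Selplg, which encodes the selectin ligand PSGL-1, was lower (367 ± 58 against 179 ± 2.4 CPM, -1.04), and Itgal, the LFA-1 chain, was lower within 2-fold (-0.61). Of 24 homing and adhesion genes 12 were higher and 6 lower. Past 2-fold 7 were higher and none lower, against 7.22% higher and 7.4% lower of all genes tested.

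The retinoid list itself was mixed. Of 16 genes 7 were higher, 7 lower and 6 within 2-fold, against 32.8%, 33.1% and 58.5% of all genes tested. Tgm2, a transglutaminase gene induced by retinoids, was at 0.293, 0.322 and 0.276 CPM in CTRL co-cultured and at 7.02, 6.46 and 7.08 CPM in ATRA restimulated libraries (log2 fold change 4.50, adjusted p = 8.77e-07), but at 48.0 to 62.0 CPM in ATRA co-cultured libraries. P2rx7, the receptor gene for extracellular ATP, was at 0.379 ± 0.073 against 2.95 ± 0.36 CPM (2.94), and at 62.1 to 88.4 CPM in ATRA co-cultured libraries. For both genes ATRA restimulated libraries lay above CTRL co-cultured and below ATRA co-cultured libraries, and CTRL restimulated libraries averaged 0.996 CPM of Tgm2 and 2.72 CPM of P2rx7. Aldh1a3, which makes retinoic acid, was higher (6.13, and 7.01 without CTRL co-cultured replicate 3), from 0.0794 ± 0.079 to 6.06 ± 0.48 CPM. Rara, the gene of a retinoic acid receptor, was at 20.6, 18.1 and 15.9 against 30.4, 27.1 and 31.7 CPM (0.71), and its interval passed 2-fold in 8 of the 17 alternatives. Fabp5 (215 ± 46 against 98.8 ± 5.2 CPM, -1.12) and Cd38 (-1.40) were lower.

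The largest differences over all genes, at a mean of at least 5 CPM and without overlap, were led by genes that one group hardly expressed. Mmp10, a matrix metalloproteinase gene, was at 0.0419, 0.322 and 0.197 CPM in CTRL co-cultured and at 275, 280 and 288 CPM in ATRA restimulated libraries (log2 fold change 10.49, SE 0.19, adjusted p = 4.87e-09), and at most 0.678 CPM in the other groups. Acvrl1, a TGF-beta family receptor gene, was at 0.0419, 0.241 and 0.0789 against 70.5, 64.7 and 70.8 CPM (9.08, SE 0.24), with 19.8 to 23.6 CPM in ATRA co-cultured cells. Without CTRL co-cultured replicate 2 these values were 11.10 and 10.00. Pth, the parathyroid hormone gene, had no count in CTRL co-cultured libraries and stood at 33.2, 31.1 and 31.2 CPM, at least 262-fold higher. Spsb1, a ubiquitin ligase adaptor gene, was at least 123-fold higher (12.8 to 16.6 CPM) and Csn3, the kappa-casein gene, at least 84.2-fold higher (9.88 to 10.7 CPM). Rasgrp3 (8.58), Adgrl2 (8.33) and Cbr3 (8.04) followed, and Rasgrp3 and Adgrl2 reached 9.80 and 9.55 without CTRL co-cultured replicate 1.

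In the other direction, Exph5, a Rab27 effector gene, was at 277, 240 and 238 CPM in CTRL co-cultured and at 4.21, 3.62 and 3.51 CPM in ATRA restimulated libraries (log2 fold change -6.06, SE 0.11, adjusted p = 4.87e-09). It stood at 1.23 to 2.74 CPM in ATRA co-cultured and 15.6 to 36.3 CPM in CTRL restimulated libraries, so CTRL co-cultured libraries were above all others. Sema4a, a semaphorin gene, was at 134, 89.6 and 103 against 1.52, 1.47 and 2.06 CPM (-6.01), and Gucy1a1, a subunit of the nitric oxide sensor, at 91.7, 74.0 and 77.7 against 0.449, 0.315 and 0.0502 CPM (-8.23). The cell adhesion gene Chl1 (-9.44), the actin-like gene Actbl2 (-9.23), Cfap91 (-7.20), Slc6a12 (-6.75) and Mpzl2 (-6.09) were each below 0.4 CPM in every ATRA restimulated library. The fitted values of Chl1, Actbl2, Cfap91, Slc6a12 and Mpzl2 reached -11.51, -10.48, -9.44, -8.55 and -7.63 when the ATRA restimulated library with most counts was left out. Their smallest differences over the 17 alternatives were -8.95, -8.65, -6.60, -6.23 and -5.50. Slc6a12 (edgeR adjusted p = 0.0114) did not pass the test against 2-fold in 4 of these alternatives. Cpne6 and Cxcl17 had no count in ATRA restimulated libraries. They were at least 41.9-fold and 35.2-fold lower (adjusted p = 0.0169 and 0.0132), but did not pass the test against 2-fold. Both passed it without CTRL co-cultured replicate 1 and with DESeq2.

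Proliferation genes were lower in ATRA restimulated cells, almost without exception. Mki67, the gene of the proliferation marker Ki-67, was at 1874, 1783 and 1861 CPM in CTRL co-cultured and at 475, 453 and 440 CPM in ATRA restimulated libraries (log2 fold change -2.01, SE 0.06, adjusted p = 4.47e-08). It was at 609 to 1245 CPM in ATRA co-cultured and at 2392 to 2556 CPM in CTRL restimulated libraries. The ATRA restimulated libraries were thus the lowest of the 12 for Mki67, but not for the mitosis list as a whole. That list summed to 2030 to 2067 CPM in them and to 1706 to 4637 CPM in ATRA co-cultured libraries. All 28 mitosis genes tested were lower and 25 of them past 2-fold, with a median of -1.74, against 33.1% lower and 7.4% lower past 2-fold over all genes tested. Bub1, a spindle checkpoint kinase gene, was at 159 ± 8.4 against 43.8 ± 0.76 CPM (-1.86) and the cyclin gene Ccnb2 at 69.2 ± 5.2 against 13.2 ± 2.1 CPM (-2.39). In bulk RNA fewer dividing cells and less RNA of these genes per cell cannot be told apart.

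Replication genes were lower to a lesser degree. Of 30 G1/S and DNA replication genes 28 were lower, 15 past 2-fold, and 10 were within 2-fold (5 in the fit of all 12 libraries), with a median of -1.17. Mcm3, of the replicative helicase, was at 234 ± 8.0 against 84.9 ± 4.3 CPM (-1.46) and Pola1, of DNA polymerase alpha, at 171 ± 2.9 against 56.2 ± 4.1 CPM (-1.60). Pcna, the sliding clamp gene, was within 2-fold (520 ± 40 against 407 ± 16 CPM, -0.35). Rfc3 was the exception and higher by 0.30, a call that ended without any 1 ATRA restimulated library (adjusted p 0.0661 to 0.0884). Of 35 replication histone genes 34 were lower and 31 past 2-fold, with a median of -1.68. H4c12 was at 200, 177 and 179 against 38.7, 38.5 and 38.3 CPM (-2.27, adjusted p = 3.62e-08), and H1f2 was the exception (106 ± 8.7 against 166 ± 11 CPM, 0.65). Histone genes are near copies of each other, so counts may be split between them.

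Promoter sequence is shown for 5 genes of lists that were mostly lower, because a short motif was more frequent in these lists than over all gene promoters. The sequences come from RefSeq (GRCm38.p6, 250 bases before each gene's start), of which 120 bases are printed. CCAAT, which the factor NF-Y binds, and TTTGAA, the cell cycle homology element used by the DREAM complex, are in capitals on either strand. TTTGAA was searched in the mitosis genes only. The printed stretch of Mki67 holds TTTGAA but no CCAAT, which lies elsewhere in its 250 bases, and that of Ccnb2 holds CCAAT but no TTTGAA. Mki67, Cdc20 and Ccnb2 act in mitosis, H3c2 is a replication histone gene and Idi1 makes isoprenoid precursors of cholesterol. Cdc20 was at 60.5, 98.1 and 105 against 23.3, 22.6 and 23.7 CPM (-1.92), H3c2 at 321 ± 21 against 83.6 ± 6.7 CPM (-1.94) and Idi1 at 68.8 ± 2.0 against 15.3 ± 4.3 CPM (-2.17).
Mki67 (chr7:135716380-135716499, minus strand): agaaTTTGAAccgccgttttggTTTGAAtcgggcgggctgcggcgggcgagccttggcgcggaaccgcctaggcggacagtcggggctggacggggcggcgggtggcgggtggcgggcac
Cdc20 (chr4:118437344-118437463, minus strand): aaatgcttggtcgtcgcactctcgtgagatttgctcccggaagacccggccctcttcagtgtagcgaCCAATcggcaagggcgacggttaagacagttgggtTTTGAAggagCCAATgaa
Ccnb2 (chr9:70421555-70421674, minus strand): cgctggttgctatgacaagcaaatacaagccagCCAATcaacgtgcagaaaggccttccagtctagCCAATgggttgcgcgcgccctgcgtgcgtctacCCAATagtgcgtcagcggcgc
H3c2 (chr13:23752225-23752344, plus strand): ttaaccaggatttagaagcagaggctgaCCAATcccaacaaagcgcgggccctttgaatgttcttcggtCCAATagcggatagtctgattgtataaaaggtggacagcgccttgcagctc
Idi1 (chr13:8885486-8885605, plus strand): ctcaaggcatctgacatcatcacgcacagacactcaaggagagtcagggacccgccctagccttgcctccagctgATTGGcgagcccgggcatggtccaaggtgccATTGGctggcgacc

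CCAAT was present, on either strand, in 19 of the 24 mitosis genes with a promoter in the table (79.2%). It was also in 27 of 32 histone genes (84.4%) and 17 of 23 replication genes (73.9%). For cholesterol and fatty acid synthesis genes the count was 18 of 23 (78.3%), against 37.5% of all 27025 genes. A gene was counted if any of its 250-base windows held the motif. TTTGAA was present in 9 of 24 mitosis genes (37.5%), against 18.3% of all. ACGTG, the core of the hypoxia response element, was present in 11 of 22 glycolysis genes (50%) and 15 of 24 hypoxia genes (62.5%), against 18.5%. Other lists were not searched for CCAAT, so it is not shown to be particular to the lists named. A match describes the letters and is not a bound site.

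Sterol and fatty acid genes were also lower. Of 33 cholesterol and fatty acid synthesis genes 32 were lower, 20 past 2-fold and none higher, with a median of -1.61. Fdps, of the isoprenoid pathway, was at 174, 194 and 195 CPM in CTRL co-cultured and at 20.1, 17.5 and 17.4 CPM in ATRA restimulated libraries (log2 fold change -3.36, SE 0.09, adjusted p = 1.86e-08), beside 55.8 to 78.1 CPM in CTRL restimulated and 108 to 167 CPM in ATRA co-cultured cells. Fads2, a fatty acid desaturase gene, was at 94.4, 117 and 116 against 7.30, 6.93 and 6.17 CPM, past 2-fold without overlap (adjusted p = 3.28e-08). Scd2, another desaturase gene, was at 726 ± 7.1 against 178 ± 4.8 CPM (-2.02). Lss, of the sterol pathway, did not pass the test (adjusted p = 0.329).

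Glycolysis and hypoxia genes were lower more often than higher. Of 22 glycolysis genes 20 were lower, 8 past 2-fold and none higher, with a median of -0.79. Slc16a3, the lactate exporter gene, was at 181, 220 and 214 against 46.9, 52.1 and 48.5 CPM (-2.06), and Hk2, the inducible hexokinase gene, at 299 ± 38 against 96.8 ± 9.5 CPM (-1.63). Gapdh was lower within 2-fold (-0.56), an uncertain value, since it has near-identical pseudogene copies among which counts may be split. Of 29 hypoxia response genes 7 were higher and 18 lower (median -0.41).

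Vegfa, the angiogenic growth factor gene, was at 31.1, 33.4 and 31.4 CPM in CTRL co-cultured and at 97.8, 97.0 and 93.8 CPM in ATRA restimulated libraries (1.59, adjusted p = 1.82e-07), beside 97.7 to 187 CPM in ATRA co-cultured and 4.51 to 6.33 CPM in CTRL restimulated cells. Ndrg1 (39.7 ± 0.80 against 186 ± 7.8 CPM, 2.23) went the same way. Bnip3, a mitophagy receptor gene of the same response, was instead lower (188, 194 and 193 against 52.9, 48.2 and 56.7 CPM, -1.87), and so was Pdk1, which diverts pyruvate from mitochondria (93.6 ± 3.6 against 18.8 ± 3.4 CPM, -2.32). For both, CTRL restimulated cells were nearer to ATRA restimulated cells, at 46.1 and 68.4 CPM on average, than ATRA co-cultured cells were, at 555 and 186 CPM.

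The nuclear respiratory chain list was the most alike of the 28 pathway lists. All 34 members were within 2-fold (median -0.10), with 9 higher and 12 lower, and Sdha (346 ± 4.9 and 359 ± 13 CPM) did not pass the test. Of 28 Myc targets and ribosome biogenesis genes 23 were within 2-fold and 19 lower (median -0.41), with none higher, although Myc itself was lower by more. Fbl, the gene of the nucleolar protein fibrillarin, was lower (-1.20), and its difference passed 2-fold with 6 libraries but not in 5 of the 17 alternatives, DESeq2 and library totals among them. In the fit of all 12 libraries 12 were lower and 1 higher. Of 19 heat shock chaperone genes 17 were within 2-fold, 8 higher and 5 lower, and in the fit of all 12 libraries 2 were higher. Hspa8 was at 3969 ± 786 and 4106 ± 62 CPM (0.05, adjusted p = 0.75).

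**Figure D4:**
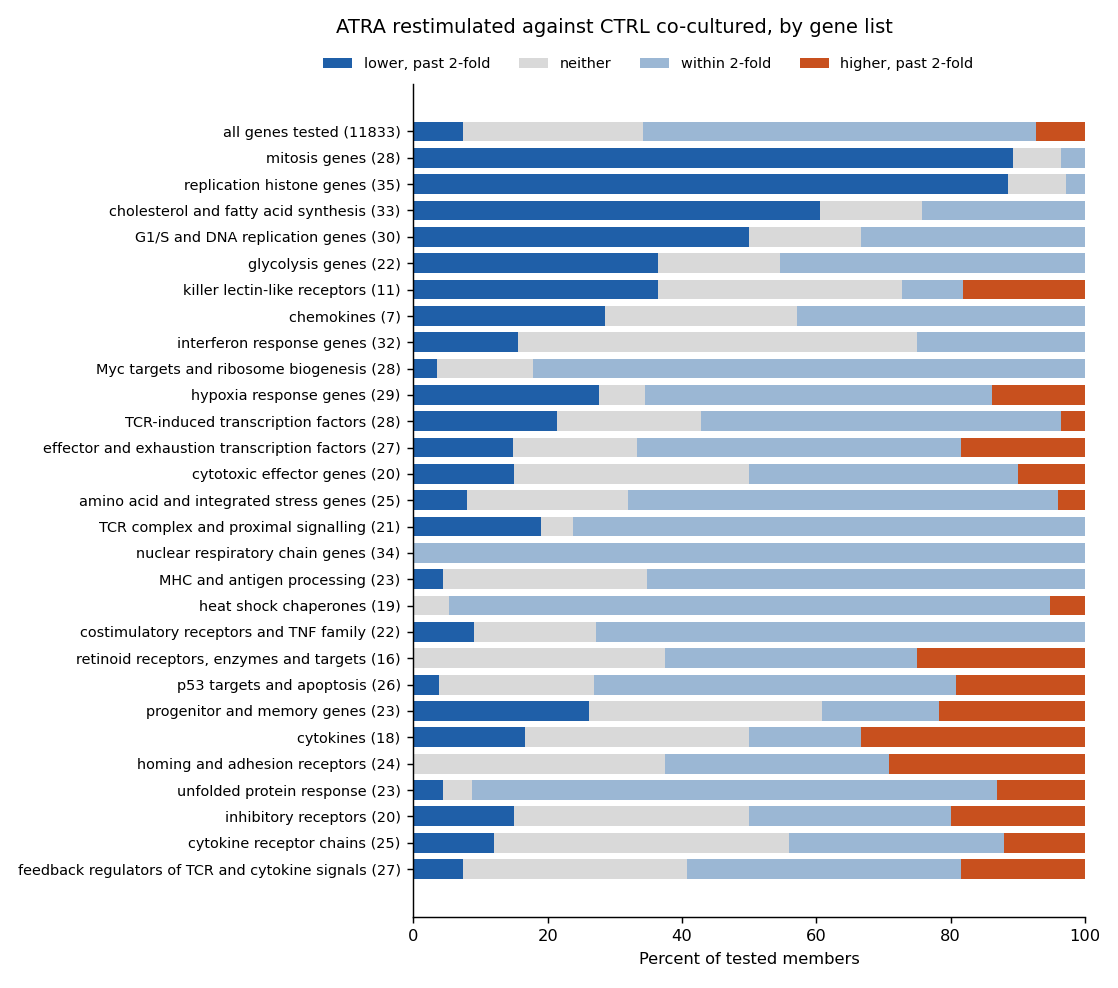
Percent of the tested members of each of 28 gene lists (number tested in brackets) that were lower past 2-fold, within 2-fold, higher past 2-fold or neither, beside all 11833 genes tested, ordered by median fold change. Mitosis and histone genes are mostly lower past 2-fold (25 of 28 and 31 of 35), while all 34 respiratory chain genes are within 2-fold.

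Stress lists differed in direction. Of 23 unfolded protein response genes 13 were higher, 3 lower and 18 within 2-fold (median 0.28). Over all genes tested these shares were 32.8%, 33.1% and 58.5%. The sensor genes Atf6 (70.9 ± 4.6 against 204 ± 4.1 CPM, 1.52) and Ern1 (23.3 ± 1.6 against 72.7 ± 2.0 CPM, 1.64) were past 2-fold, while Hsp90b1 and Calr did not pass the test. They did without CTRL co-cultured replicate 1 (0.29 and 0.41). Of 26 p53 targets and apoptosis genes 11 were higher and 5 lower (median 0.18), against 32.8% and 33.1% of all genes tested. Mdm2, which restrains p53, was at 219, 209 and 206 against 420, 437 and 420 CPM (1.01), and Gadd45b, a stress response gene, was at 23.9 ± 3.4 against 80.7 ± 4.8 CPM (1.76). Of 25 amino acid and integrated stress genes 3 were higher, 12 lower and 16 within 2-fold (median -0.32). The shares over all genes tested were again 32.8%, 33.1% and 58.5%. The transporter chain gene Slc3a2 was higher (351 ± 57 against 835 ± 25 CPM, 1.25), and Cth, a cysteine synthesis gene, was lower (104, 159 and 151 against 15.7, 17.4 and 12.0 CPM, -3.20).

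The counts of interferon response genes moved with 1 library. Of 32 tested 4 were higher, 12 lower and 8 within 2-fold, with a median of -0.48, but without CTRL co-cultured replicate 1 the counts were 13 higher and 13 within 2-fold. Gbp5, a guanylate binding protein gene, was lower (51.6 ± 1.4 against 8.63 ± 0.73 CPM, -2.58), and Irf1 was higher (22.3 ± 2.2 against 49.4 ± 2.5 CPM, 1.15). Of 23 MHC and antigen processing genes 15 were within 2-fold, 6 higher (10 without that library) and 9 lower. The MHC activator gene Nlrc5 was lower (-1.20) and the classical class I gene H2-D1 higher (0.51). Of 11 killer lectin-like receptor genes 2 were higher and 6 lower (median -0.63).

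**Figure D5:**
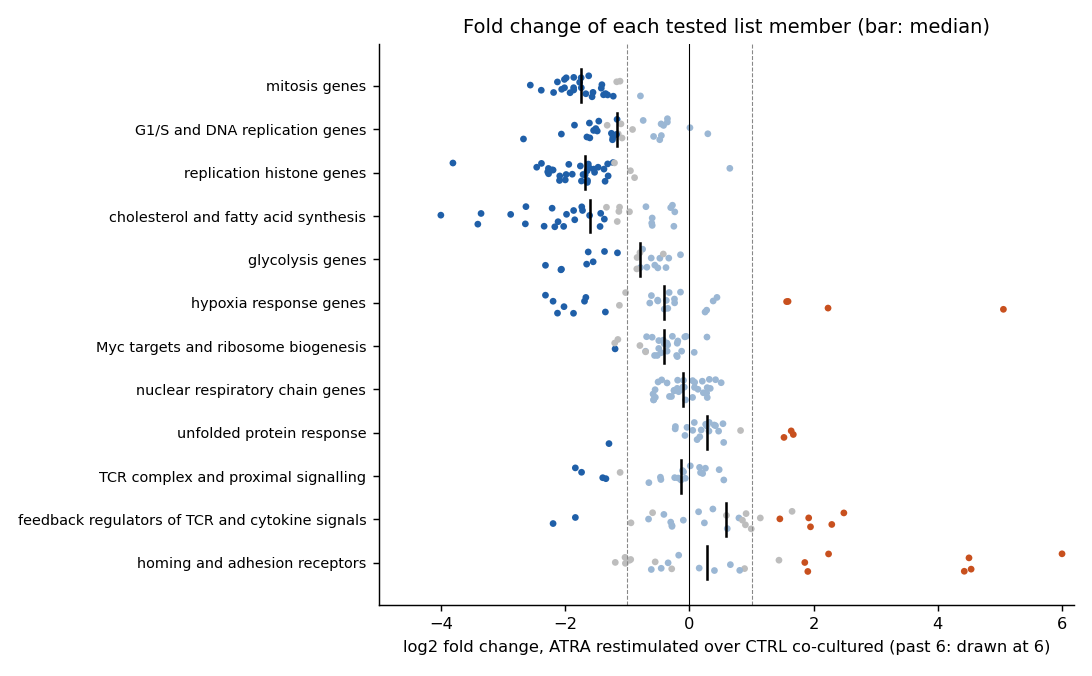
Log2 fold change of each tested member of 12 gene lists, ATRA restimulated over CTRL co-cultured, with the median as a bar and dashed lines at 2-fold; orange and blue points passed 2-fold, light blue points were within it, and values past 6 are drawn at 6. Nearly all mitosis, histone and sterol genes lie left of 0, respiratory chain genes lie between the dashed lines, and homing receptors reach far to the right (Itga2 at 4.54, Ccr9 past 6).

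Set beside the other 2 groups, the genes past 2-fold fell under both labels and under neither. In 326 of the 1730 genes (18.8%) all 6 restimulated libraries lay on 1 side of all 6 co-cultured libraries, as for Lta, which holds for 12.1% of all genes tested. In 492 (28.4%) all 6 ATRA libraries lay on 1 side of all 6 CTRL libraries, as for Il18r1, Ccr9, Satb1 and Mki67, which holds for 14.1% of all genes tested. In 912 (52.7%) neither held, as for Il3, Myb and Itgb7. Since either pattern requires that the 2 compared groups do not overlap, these shares describe the genes and test nothing.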

How the data were processed

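Gene counts per library were used as the authors deposited them: whole numbers, not normalized, in 1 table of the co-cultured and 1 of the restimulated libraries. The mm39 build and the tools STAR 2.7.11b, cutadapt 5.0, DESeq2 1.42.1 and Salmon 1.10.3 appear in the submitters' processing notes. What each tool did, the strand setting and the annotation are, however, not given in the sources used here. Libraries were TruSeq stranded total RNA, per the labels' protocols. The tables differ in gene naming and in rows kept, which can create differences between the groups.

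Of 13625 symbols in both tables, 149 with the suffix -ps were left out. The 11833 genes that passed the low-count filter were tested with edgeR 4.0.16 (quasi-likelihood test, TMM scaling, R 4.3.3, limma 3.58.1), with Benjamini-Hochberg adjustment over all of them, and with edgeR's test against 2-fold. Each SE was the absolute fitted coefficient divided by the square root of its F statistic. It can understate the uncertainty where 1 group had few counts, as for Il4, Mmp10 and Acvrl1. Replicates were compared by chi-square. The code was tested on simulated data. Alternatives were DESeq2 1.42.0, other scalings and filters, a replicate block, a fit of all 12 libraries and leaving out each library.

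The comparison and the gene lists were chosen with earlier results of these data known. Genes were named by rule: the 10 largest called differences in each direction (at least 5 CPM in the higher group, no overlap, no predicted or clone-named genes), in each list the 2 members per direction that differed with the lowest p and the 2 most abundant within 2-fold, and 32 fixed genes. Other list members named were picked after their values were seen. Il2, Il21 and other listed genes that only 1 table names were not compared. A few genes that the rule names are not reported here.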

Additional observations from a re-analysis of the deposited data

Results flagged for a closer look

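A set of 6 genes was listed in the table of the restimulated libraries alone, and so lay outside the comparison. They had no count in any of the 3 CTRL restimulated libraries and were detected in all 3 ATRA restimulated libraries. Il2 was included by name, and the others because they also averaged at least 5 CPM in ATRA restimulated libraries. Predicted, clone-named and -ps genes were left out. Stfa2 and Stfa3, which encode stefin protease inhibitors, averaged 62.6 and 12.9 CPM. Mmp13, a collagenase gene of the same family as Mmp10, averaged 19.1 CPM. Sox9, a transcription factor gene of cartilage and progenitor cells, averaged 7.98 CPM, and Drd1, a dopamine receptor gene, 5.03 CPM. Il2, the T cell growth factor gene, averaged 0.652 CPM, from 12, 19 and 6 counts. Their levels in co-cultured cells were not analysed here.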

How the results depend on the processing

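Of 182 named genes 150 kept their side of the test under all 17 alternatives. Of 75 within 2-fold 60 remained so, and of 88 past 2-fold 69 did. Without CTRL co-cultured replicate 1 the sign of Stat3 (0.18) and Bcl2a1d (0.11) turned; over the libraries left out in turn their lowest values were -0.17 and -0.19. The cause was not tested. The median absolute log2 fold change was 0.516 with library totals, 0.557 with no filter, 0.492 with at least 1 CPM, 0.515 with -ps symbols kept and 0.517 to 0.531 without 1 library. The mean Pearson correlation between the groups was 0.910 with a prior count of 5 and 0.874 over genes of at least 1 CPM. Leaving out 1 library at a time gave 6958 to 8698 genes that differed, 1497 to 2038 past 2-fold and 6568 to 7174 within it. With the replicate block 7473 genes differed and 1640 passed 2-fold. DESeq2 gave 7741 and 1395, and the fit of all 12 libraries 6637 and 1358. For pairs with matching replicate numbers, the deviations correlated at -0.00766, -0.0168 and 0.0321. Pairs with unlike numbers ranged from -0.0468 to 0.0425. Each group had only 3 libraries, and CTRL co-cultured replicate 1 stood apart in its group. These values therefore cannot tell whether matching numbers mean a shared animal or culture. Of the genes that differed, 49.8% were higher with TMM, 55.1% with library totals and 53.8% with upper-quartile scaling. Values below the 3-count floor were not resolved at this depth.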
